A study of Drosophila melanogaster with 3 samples.

Results

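The genes u-shaped (ush, FBgn0003963) and cabut (cbt, FBgn0043364) overlap at the distal end of chromosome arm 2L. They were examined for sites where a GFP-tagged form of the CG4318 protein was recovered from chromatin. A site was counted when its summit lay in either gene or within 2 kb of it (Ensembl gene models, build dm6). Of the 5056 reproducible peaks in the dm6 list, 8 met this rule, and all 8 lay inside the body of ush. The locus was chosen by its signal scores and its number of peaks in this same list, so the number of sites and their signal scores are given as descriptions without a test.

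The data come from chromatin immunoprecipitation followed by sequencing (ChIP-seq) on whole prepupae, the stage that opens metamorphosis, with the sexes pooled. There were 3 biological replicates of 1 group. The animals were from a transgenic line that stably expresses CG4318 with GFP at its C terminus, and an antibody against GFP was used. The labels give an age in days that no prepupa reaches, so only the stage was used. Whole animals were used, so the cells in which a site was occupied are not known. No comparison sample was analysed here.

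The protein encoded by ush is a zinc finger cofactor of the Friend of GATA family, which binds GATA transcription factors such as Pannier and changes their activity. It acts in bristle patterning, dorsal closure, the heart and the blood cells of the fly. The protein encoded by cbt is a zinc finger transcription factor related to mammalian TGF-beta-inducible early genes, and acts in dorsal closure and in the transcriptional response to dietary sugar. The cbt gene is nested within ush on the opposite strand. ush runs from 476220 to 540560 on the plus strand (64341 bp), and cbt from 476446 to 479688 on the minus strand (3243 bp). ush has 5 annotated transcripts that start at 4 positions, and the 3 annotated transcripts of cbt share a start at 479688.

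The sites are called site 1 to site 8 in order from the first start of ush. Sites 1 to 5 lay in the first intron of ush-RE, which holds the whole of cbt. Sites 6, 7 and 8 lay in the 34033 bp intron that follows the first exon of ush-RB, which is intron 2 of ush-RE. The first intron of ush-RD, 49060 bp long, spans all 8. None of the 8 summits fell in a ush exon. In cbt, the summit of site 1 lay in the 5′ UTR of cbt-RB and cbt-RC and in the intron of cbt-RA. Sites 2 and 3 lay upstream of cbt within 2 kb, so cbt had 3 of the 8 sites and shared each of them with ush.

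The summit sequences of the 7 sites outside exons follow, since they show the base composition described below. Each is the plus strand from 50 bp before to 50 bp after the summit (RefSeq genome, Release 6 assembly), and capitals mark the longest unbroken run of A and T.
Site 2, chr2L:480030-480130: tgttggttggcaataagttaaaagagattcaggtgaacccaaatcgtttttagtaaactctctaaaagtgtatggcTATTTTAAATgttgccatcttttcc
Site 3, chr2L:481013-481113: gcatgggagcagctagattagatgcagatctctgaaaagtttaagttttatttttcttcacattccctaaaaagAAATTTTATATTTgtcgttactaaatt
Site 4, chr2L:481984-482084: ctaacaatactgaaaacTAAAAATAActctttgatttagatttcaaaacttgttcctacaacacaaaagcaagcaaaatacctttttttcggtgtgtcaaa
Site 5, chr2L:486056-486156: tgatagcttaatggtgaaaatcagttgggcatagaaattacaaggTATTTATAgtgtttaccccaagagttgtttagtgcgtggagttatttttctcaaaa
Site 6, chr2L:493386-493486: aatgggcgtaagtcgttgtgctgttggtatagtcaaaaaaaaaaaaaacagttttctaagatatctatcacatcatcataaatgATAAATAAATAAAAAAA
Site 7, chr2L:516166-516266: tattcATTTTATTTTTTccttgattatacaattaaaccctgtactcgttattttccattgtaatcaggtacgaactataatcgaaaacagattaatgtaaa
Site 8, chr2L:522902-523002: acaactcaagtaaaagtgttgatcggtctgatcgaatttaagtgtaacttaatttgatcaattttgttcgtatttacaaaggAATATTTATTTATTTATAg

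The strongest site is also shown with its surroundings, to set the summit against the sequence on either side. Capitals mark the same summit window.
Site 3, chr2L:480913-481212: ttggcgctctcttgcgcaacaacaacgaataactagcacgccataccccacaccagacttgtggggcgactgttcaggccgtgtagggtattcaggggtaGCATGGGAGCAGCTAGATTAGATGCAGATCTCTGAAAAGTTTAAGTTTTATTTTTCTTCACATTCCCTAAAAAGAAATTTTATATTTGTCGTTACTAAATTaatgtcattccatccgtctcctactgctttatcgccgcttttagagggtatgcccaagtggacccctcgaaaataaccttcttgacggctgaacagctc
In this stretch the GC content was 55.0% in the 100 bp to the left of the window and 49.5% to its right, against 29.7% within it.

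The strongest binding at the locus was upstream of cbt. Site 3, with its summit at 481063, was 1375 bp upstream of the cbt start and had a signal score of 2306, the third highest of all reproducible peaks. The signal score is the authors' peak caller value for a region, on a scale that is not stated, and is compared only within a list. In the replicate lists site 3 scored 881 in replicate 1, 740 in replicate 2 and 656 in replicate 3, with ranks of 3, 5 and 3 among 30000 candidates. It was the strongest candidate of the locus in every list.

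Site 2 was the promoter site of cbt. Its summit at 480080 lay 392 bp upstream of the cbt start, with a score of 923 and rank 113 in the reproducible list. It scored 347, 334 and 259 in replicates 1, 2 and 3, at ranks 147, 104 and 79, and was second at the locus in each. It was the only 1 of the 8 sites within 500 bp of a protein-coding transcription start site (TSS), the distance used here for a promoter. Over all reproducible peaks 23.8% were at promoters.

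**Figure D1:**
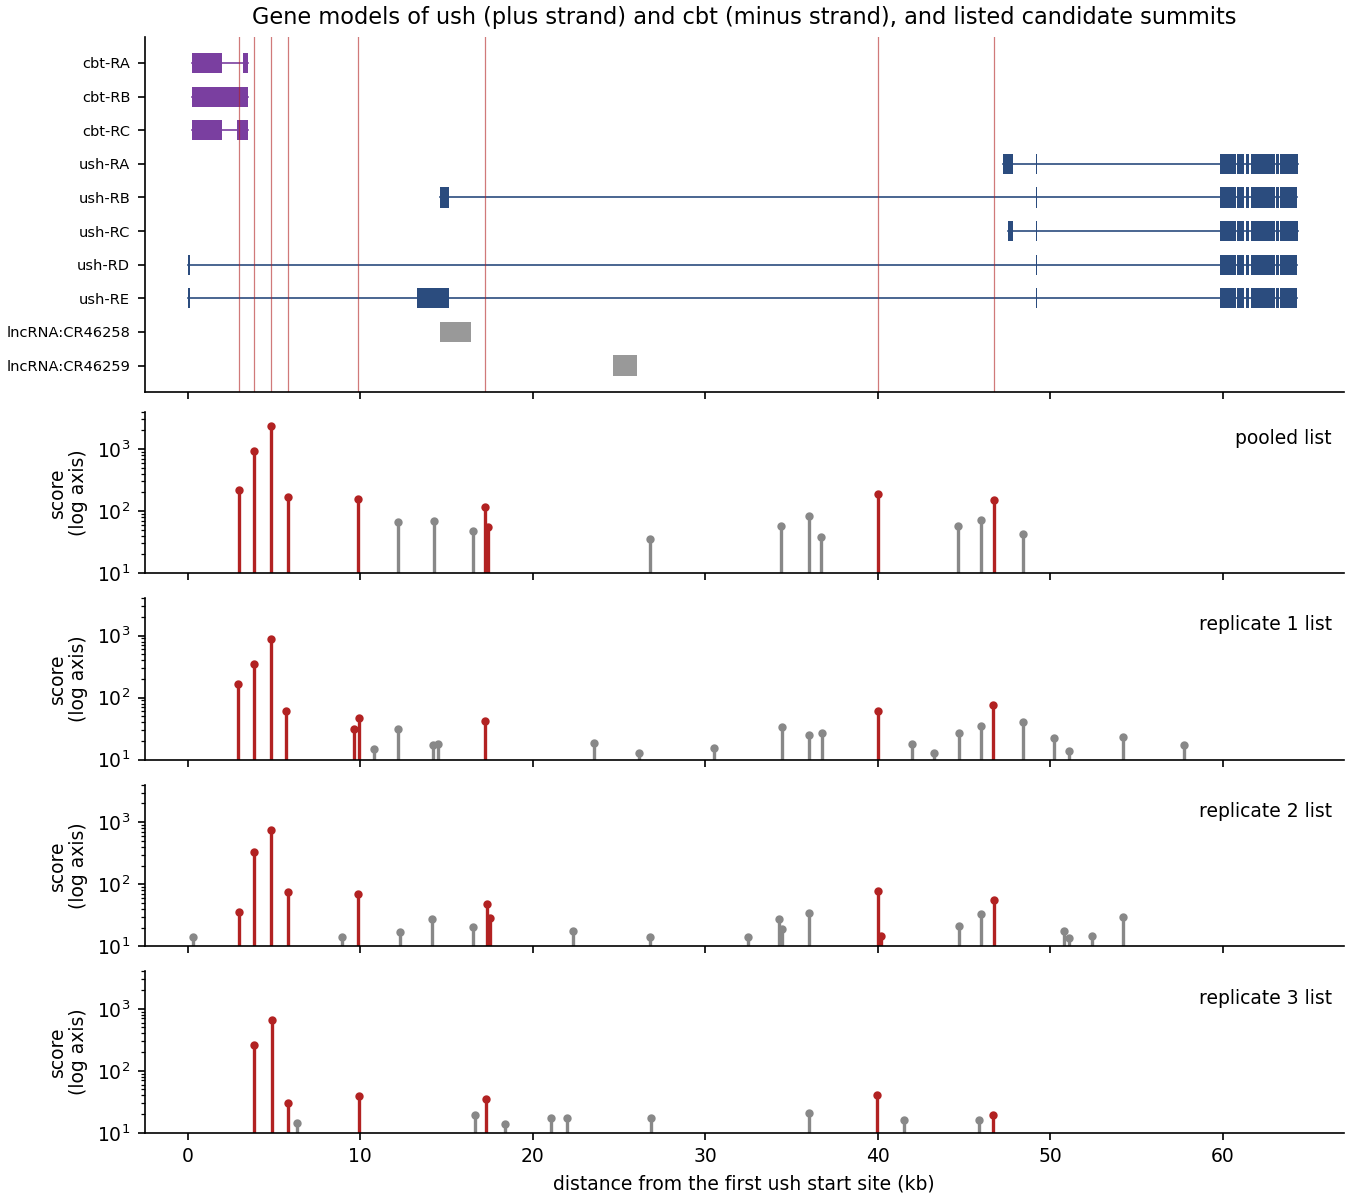
The upper panel draws the annotated transcripts (boxes are exons, lines are introns), and vertical lines mark the 8 reproducible summits. The lower panels give the signal score (log axis) of every candidate at the locus by distance in kb from the first ush start; red candidates overlap a reproducible site and grey ones do not. The 2 strongest, with pooled scores of 923 and 2306, stand just upstream of cbt, and the pooled list has no candidate over the last exons of ush.

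Site 1 differed from its neighbours in replicate support and in sequence. Its summit at 479166 lay 522 bp downstream of the cbt start, just beyond the promoter distance, and its score was 220.6 at rank 2087. In replicate 1 the region scored 163 at rank 849. In replicate 2 it scored 35.1 at rank 6673, and in replicate 3 no candidate overlapped it, the nearest summit being 898 bp away. So the site was high in replicate 1, low in replicate 2 and not listed in replicate 3. The rank in replicate 2 was 7.86 times that in replicate 1, a larger ratio than at 99.9% of the 5027 reproducible peaks listed in both. The ratio was computed for site 1 alone and in the direction of its own difference, so this share is only a description. A missing candidate in replicate 3 was not rare in itself, since 16.4% of reproducible peaks had none.

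Site 4 lay 2346 bp upstream of the cbt start, just outside 2 kb, with its summit at 482034. It had a score of 164.7 and rank 3077. In replicates 1, 2 and 3 it scored 60.3, 74.6 and 30.5, at ranks 3978, 2590 and 3928. It was thus weaker than sites 2 and 3 in each replicate, but within the strongest 5056 regions of all 3.

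**Figure D2:**
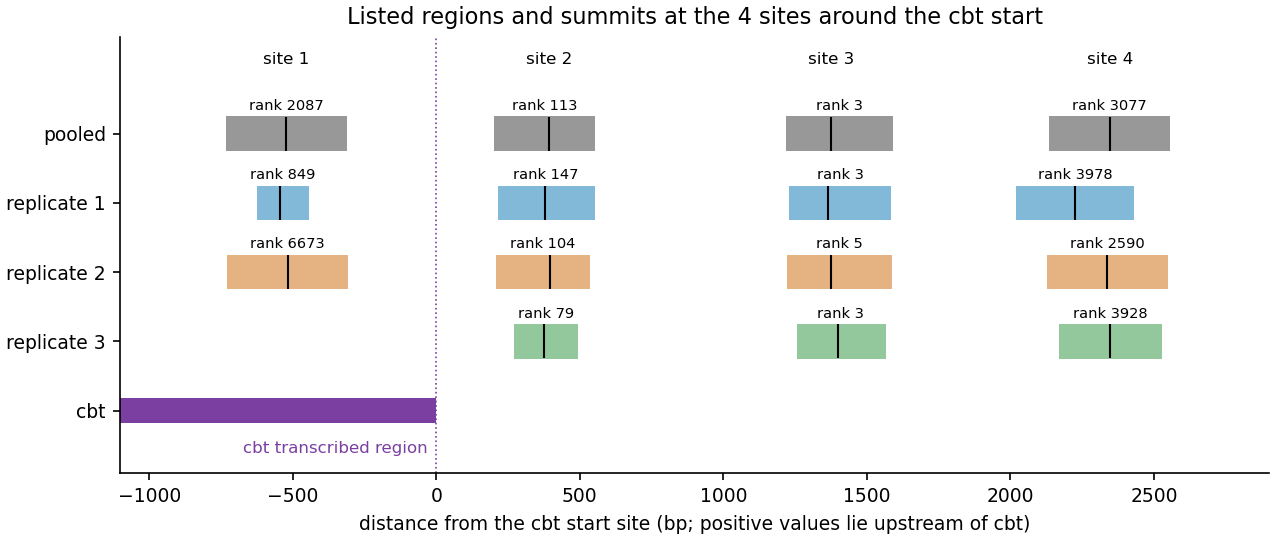
Horizontal bars show the listed regions of sites 1 to 4 in the pooled and replicate lists, black ticks their summits, and the horizontal axis the distance in bp from the cbt start. Sites 2, 3 and 4 have a region in all 3 replicates, with the summit of site 4 displaced by 121 bp in replicate 1, whereas site 1 is narrow in replicate 1 (181 bp) and has no region in replicate 3.

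The other 4 sites were spread along the long ush introns, with scores below the list median of 193.3. Site 5, at 486106, was 4729 bp upstream of the ush-RB start and had a score of 157.1 (rank 3288). It scored 47.6, 69.6 and 39.2 in replicates 1, 2 and 3, at ranks 5282, 2855 and 2709. Its standing was therefore lower in replicate 1 than in the other two.

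Site 6, at 493436, lay 2601 bp downstream of the ush-RB start. It was the weakest of the 8 in the reproducible list, with a score of 116.0 at rank 4720 of 5056. It scored 41.8, 48.1 and 34.6 in replicates 1, 2 and 3, at ranks 6092, 4589 and 3202. A second pooled candidate with a score of 55.0 overlapped its region, with a summit at 493635.

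Site 7, at 516216, was the farthest of the 8 from an annotated TSS, at 7250 bp. Its score was 186.9 (rank 2636), with 59.7, 77.0 and 40.4 in replicates 1, 2 and 3 and ranks of 4030, 2461 and 2598. Site 8, at 522952, lay 514 bp upstream of the ush-RA start and so just outside the promoter distance. Its score was 148.0 (rank 3551). It scored 76.7 in replicate 1 at rank 2902, 55.1 in replicate 2 at rank 3862 and 19.2 in replicate 3 at rank 12230. Site 8 was thus weakest in replicate 3, and was the only other site below that replicate's strongest 5056 regions.

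The starts of ush were farther from summits than that of cbt. The start of ush-RD and ush-RE at 476220 was 2946 bp from the nearest reproducible summit, and that of ush-RB at 490835 was 2601 bp from it. The starts of ush-RA at 523466 and ush-RC at 523736 were 514 and 784 bp from site 8. With a distance of 1000 bp in place of 500 bp, 3 of the 8 sites counted as promoter sites (sites 1, 2 and 8), beside 33.2% of all peaks. With 250 bp none did, beside 13.7%.

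Replicates were compared by whether each listed a site among its strongest 5056 regions, the length of the reproducible list, with an overlap of at least 1 bp. Replicate 1 did so for 6 of the 8 sites, replicate 2 for 7 and replicate 3 for 6. Over all reproducible peaks the shares were 84.6%, 84.2% and 73.3% in replicates 1, 2 and 3. Sites 2, 3, 4 and 7 were in all 3 of these top lists. That is 4 of 8, beside 56.6% of all reproducible peaks. With candidates of any rank, 7 of 8 sites were listed in every replicate, beside 83.2% of all peaks. The reproducible list was itself derived from these replicates, and its peaks are the strongest regions of the pooled list, so support from a replicate is not an independent check.

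**Figure D3:**
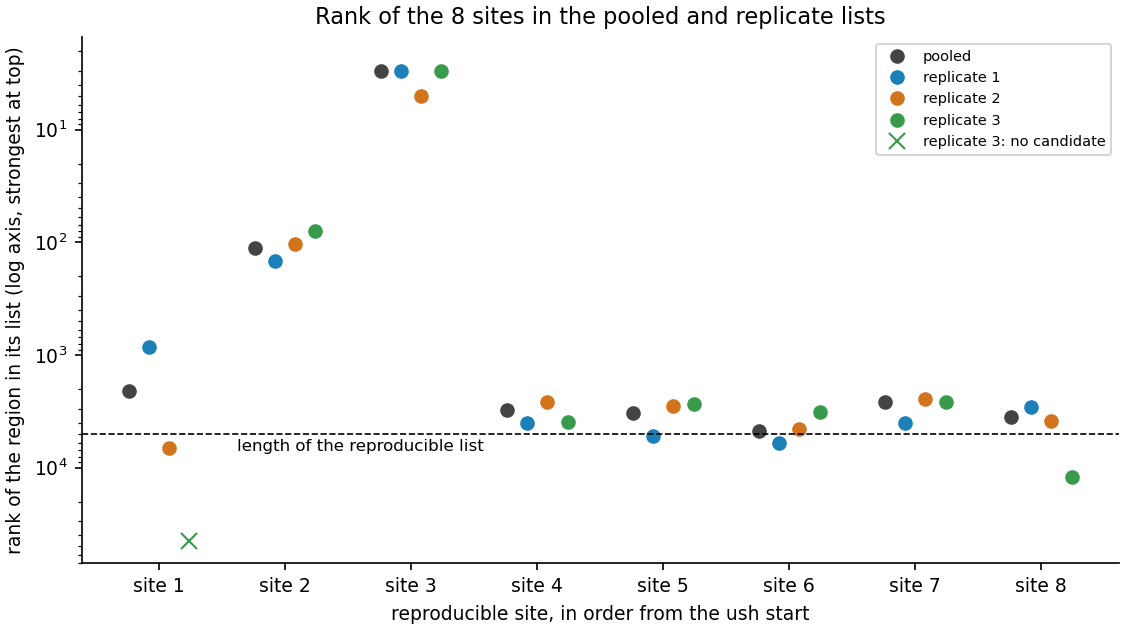
The vertical axis gives the rank of each site's region in the pooled and replicate lists (log axis, strongest at top), and the dashed line is the length of the reproducible list, 5056. Sites 2 and 3 keep ranks of 147 or better in every replicate, while site 1 runs from rank 849 in replicate 1 to no candidate in replicate 3 (cross).

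Sites 3 and 2 were first and second in every list, and the order below them changed between replicates. In replicate 1 the third was site 1 and the fourth site 8, whereas in replicates 2 and 3 the third was site 7. Site 6 was last in replicate 1, site 1 in replicate 2 and site 8 in replicate 3. The order of sites 1 and 4 to 8 thus differed between replicates.

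Most replicate summits lay close to the reproducible summit, which was itself derived from these replicates. The replicates could lie farther from each other, as at site 4, with summits at 481913 in replicate 1 and 482036 in replicate 3. The strongest overlapping candidate of a replicate had its summit a median of 13 bp from the reproducible summit over the 23 site and replicate pairs, beside 18 bp over all reproducible peaks. Without replicate 2 both medians were 21 bp. At site 3 the replicate summits were 10, 1 and 25 bp away, and at site 2 they were 13, 3 and 16 bp away. The farthest were site 4 in replicate 1, at 121 bp, and site 6 in replicate 2, at 118 bp. Site 8 was 82 bp away in replicate 1 and 66 bp in replicate 3. The reproducible regions of sites 2 and 3 were 351 and 374 bp wide, and those of the other 6 sites were all 420 bp. The 11 weaker pooled candidates at the locus were also all 420 bp wide, so this width is not read as broader binding.

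In the reproducible list the 4 sites around the cbt start were closely spaced, with gaps of similar length. The gaps from site 1 to 2, 2 to 3 and 3 to 4 were 914, 983 and 971 bp. Between neighbouring reproducible summits on the same arm the median gap was 6722 bp, and 15.4% of gaps were 983 bp or shorter. Runs of 4 neighbouring summits within 2868 bp, the span from site 1 to site 4, were 77 of 5038, and 253 of the 5056 summits were in such a run. The later gaps at the locus were 4072, 7330, 22780 and 6736 bp. The span was chosen after its value was seen, so these shares describe how common such close spacing is. How common such similar gaps are was not examined.

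Beyond the reproducible sites, the pooled list held 11 weaker candidates at the locus, with scores from 35.0 to 82.4. The strongest, at 512223, was at rank 6721. A region overlapped it in all 3 replicates, as at 522179 (score 70.3). The candidate at 493635, which overlaps site 6, was also overlapped in all 3 replicates. In replicates 1 and 3 the overlapping region was the one already counted for site 6, and only replicate 2 listed a separate candidate there, with its summit at 493761. Site 6, with a score of 116.0, and the candidate at 512223, with 82.4, were the nearest at the locus on either side of the lowest reproducible score, 108.7. Replicates 1, 2 and 3 listed 28, 27 and 16 candidates at the locus. The last pooled summit was at 524609. The last in replicates 1, 2 and 3 were at 533985, 530441 and 522886, so no list had a summit over the exons from 536023 to 540560 at the 3′ end of ush.

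The summits of sites 2 to 8 were rich in A and T, and that of site 1 was not. GC content in the summit window was 33.7% at sites 2 and 5, 29.7% at site 3, 28.7% at site 4 and 25.7% at sites 6, 7 and 8. It was 58.4% at site 1. In windows centred 200 bp to each side the mean GC content was between 40.1% and 57.9% at the 8 sites. The summit was lower than its flanks at 7 of 8 sites, with differences from -31.2 to -14.4 percentage points. At site 1 it was 16.3 percentage points higher.

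Over the 8 sites the median difference was -22.3 percentage points, beside -14.4 over all reproducible peaks. The SD over the 8 sites was 15.0, and site 1 was the only one with a positive difference. With windows of 100 bp to either side the median was -13.6, beside -11.2 over all peaks. A summit richer in GC than its flanks was found at 466 reproducible peaks, or 9.22%, and only 12 peaks had a GC content as high as site 1 or higher, site 1 included. Of the 466, 21.2% had no candidate in replicate 3, against 15.9% of the 4559 peaks with lower GC at the summit. The rank was better in replicate 1 than in replicate 2 at 47.4% of the former and 50.3% of the latter, among peaks listed in both. Whether base composition bears on the uneven listing of site 1 was not tested.

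**Figure D4:**
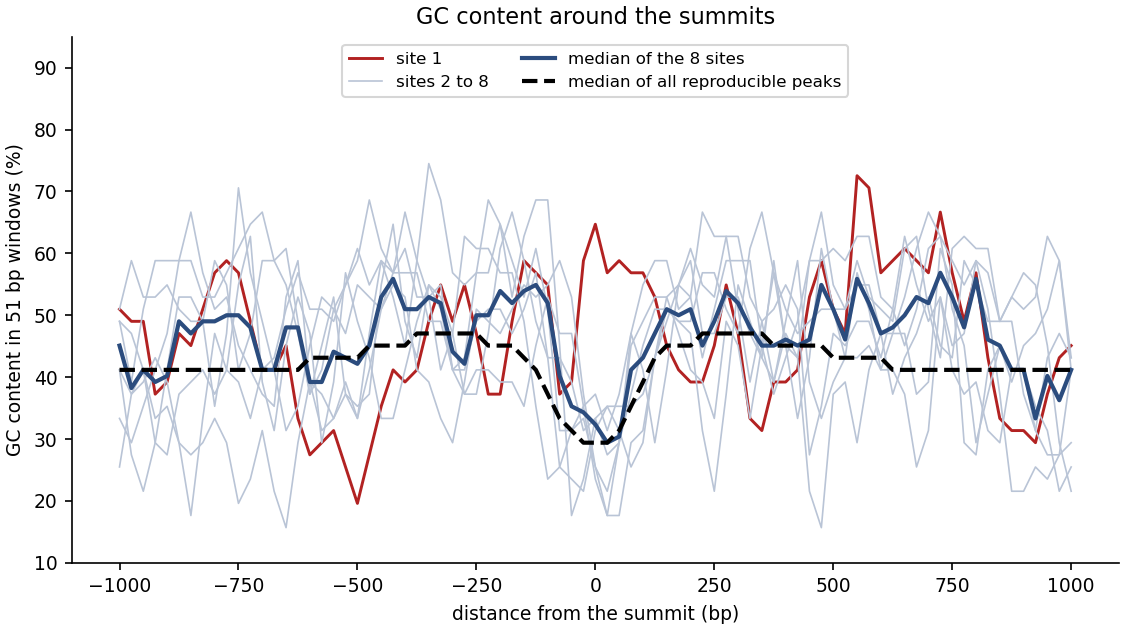
GC content in 51 bp windows is drawn against the distance in bp from the summit, for each site (thin lines), for the median of the 8 sites and for the median of all reproducible peaks (dashed). Sites 2 to 8 dip at the summit as the median of all peaks does, while site 1 (red) is high there, with 58.4% over the summit window.

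The longest unbroken run of A and T in the summit window was 18 bp at site 8, 17 bp at site 6, 13 bp at site 3, 12 bp at site 7 and 10 bp at site 2. It was 9 bp at site 4, 8 bp at site 5 and 3 bp at site 1, and the median over all reproducible peaks was 10 bp. Short motifs were searched on both strands of the same windows. TATAAA was found at sites 3, 5 and 8, beside 25.2% of all reproducible summits. TTTAAA was found at site 2, beside 23.5%, and ATATTA at none, beside 23.7%. GATAA, a form of the sequence recognised by GATA factors, was found at site 6, beside 24.7%. Other forms, such as GATAG, were not searched, so sites without GATAA may still hold a GATA sequence. GAGAG was found at sites 1 and 2, beside 8.19% of all summits and 16.5% of windows 400 bp away. In those flanking windows the shares were 8.58% for TATAAA, 5.76% for TTTAAA, 5.47% for ATATTA and 15.6% for GATAA. None of these letters is shown to be a binding site.

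The number of sites was set against other genes as a description. A reproducible summit lay in or within 2 kb of 21.8% of 13945 protein-coding genes. At least 3 summits, as at cbt, were found at 4.37% of genes, and at least 8, as at ush, at 0.538%. Longer genes can hold more summits. Among the 167 other genes of like length, from 51533 to 80328 bp, the median was 2 summits and the range 0 to 21, and 150 of them (89.8%) had fewer than 8. None of the 167 had a stronger peak than site 3. The locus was chosen by its signal scores and site 3 ranked 3 of 5056, so comparisons of peak strength were largely set beforehand. Among 1823 genes of like length to cbt, from 2595 to 4053 bp, 99.1% had fewer than 3 summits and 2 had a stronger peak. Summits shared by overlapping genes were counted for each, which raises both counts here.

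**Figure D5:**
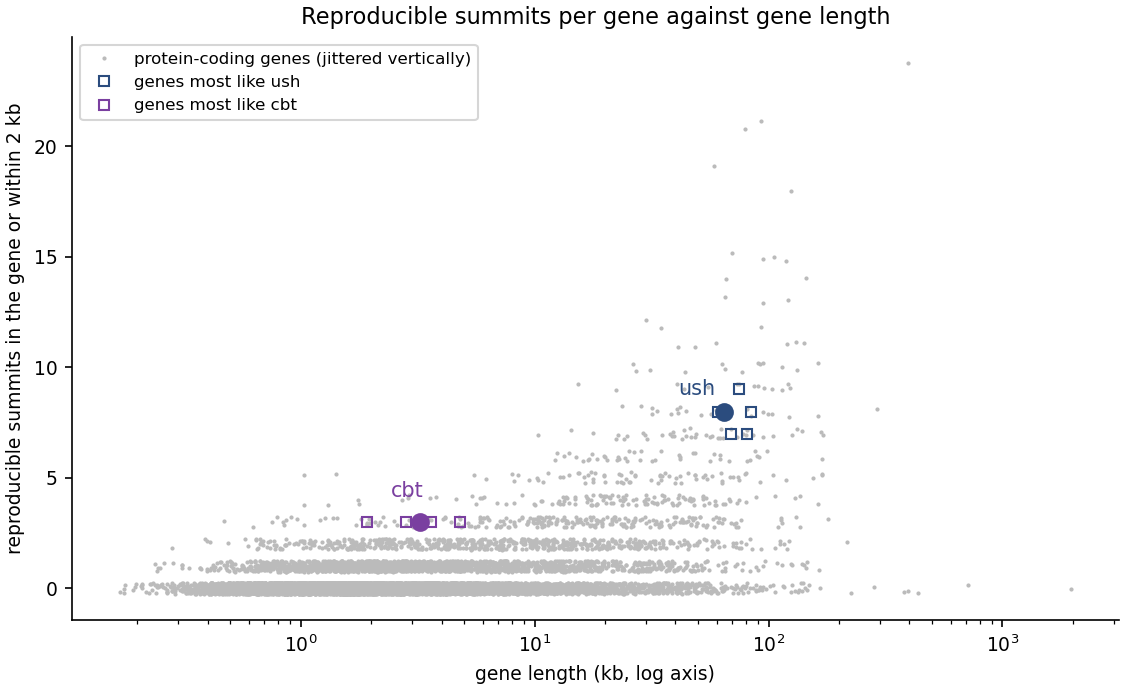
Each grey point is a protein-coding gene, with its length in kb (log axis) and the number of reproducible summits in it or within 2 kb, shifted vertically by a small random amount. ush, with 8 summits, and cbt, with 3, are drawn with the 5 genes most like ush and the 4 most like cbt (squares); most genes of either length have fewer.

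Likeness to ush and cbt was measured over all 13945 genes from the number of summits, the strongest score and gene length, each on a log2 scale and standardised. The 5 genes nearest to ush were Eip74EF, ds, mam, ed and RapGAP1, with 7 to 9 summits and strongest scores from 766 to 1146, at distances of 0.30 to 0.54. Eip74EF encodes an ecdysone-induced ETS factor, ds the cadherin Dachsous, and mam the Notch coactivator Mastermind. All 5 had a weaker strongest peak than ush, which follows largely from the high rank of site 3. The 4 nearest to cbt were TAF1C-like, Ldh (lactate dehydrogenase), CG6927 and by, each with 3 summits and with strongest scores from 766 to 1585.

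Other annotated starts in and beside ush were not close to the 8 sites. MED15, a Mediator subunit gene whose transcribed region ends just before ush, had its nearest summit 540 bp upstream of its start, at 472473. lwr, the gene of the SUMO-conjugating enzyme, lies beyond the 3′ end of ush, and its start was 19628 bp from the nearest reproducible summit. The starts of the non-coding genes lncRNA:CR46258 and lncRNA:CR46259 inside ush were at least 1557 bp from a summit. Downstream of site 8 the next reproducible summit on the arm was 81361 bp away.

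Genes that work with ush and cbt were listed to see which of them also had sites. These lists were drawn up with earlier results of the data known. Their genes are also longer than the median gene of 2166 bp, with list medians from 6597 to 14627 bp, so the counts are read beside that. A summit was counted for every gene it lay in or within 2 kb of, so some are shared with genes outside the lists. The strongest scores given below for Med, puc and bigmax also stood at other genes of the same arm. Of 11 GATA factors and partners of ush, 4 had a summit in the gene or within 2 kb, beside 21.8% of all genes, and 1 (tin) had a promoter summit, beside 9.40%. The strongest were at the homeobox gene tin (score 297) and the GATA factor genes grn (260) and srp (204). pnr, which encodes the GATA partner Pannier, had 1 summit with a score of 111.

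In the Dpp pathway, the fly BMP pathway, 12 of 16 genes had a summit, beside 21.8% of all genes, and 3 had a promoter summit, beside 9.40%. The strongest were at the ligand gene gbb (score 1445), the Smad gene Med (1064) and the repressor gene brk (1052). The most summits, 19, were at shn, a zinc finger partner of the Smads. Of 14 genes of JNK signalling and dorsal closure, 7 had a summit and 1 (kay, the Fos gene) a promoter summit, beside the same 21.8% and 9.40%. The strongest were at raw (538), the kinase gene msn (416) and the JNK phosphatase gene puc (372). Of 10 genes of sugar sensing and cbt partners, 4 had a summit and 1 (bigmax) a promoter summit, again beside 21.8% and 9.40%. The strongest were at HDAC1 (544), Sin3A (304) and bigmax (204), the last encoding the partner of Mondo. Each of these was weaker than site 3 of ush and cbt, which follows largely from the rank of site 3, at 3 of 5056. Counting only peaks in the top list of every replicate, fewer genes had a summit, beside 13.5% of all genes. These were 2 of 11 GATA factors and partners, 11 of 16 Dpp genes, 3 of 14 JNK genes and 1 of 10 sugar genes. No such summit lay at tin, pnr, Med, kay, Sin3A or bigmax.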

How the data were processed

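CG4318-GFP ChIP-seq was performed on whole prepupae, with 3 biological replicates of 1 group. The deposited files are narrowPeak lists. Per the deposited file descriptions, each replicate's 30000 candidates were derived from its alignment and 1 further file of unstated role. The pooled candidates were derived from the 3 alignments and such a file, and the reproducible list from all of these by irreproducible discovery rate thresholding. Which aligner and peak caller were used, and how they were set, is not given in the sources used here. Signal scores of the regions are as deposited by the authors. At 7 of the 8 sites the authors' −log10 q-value was at its ceiling of 3.89, as it was at 3838 of all 5056 reproducible peaks. This value therefore did not serve to rank the sites. The files hold no read counts, so depth is unknown and its effect on precision cannot be stated. The deposited dm3 lists were not used.

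All 5056 reproducible rows were identical to the strongest pooled regions. Listed regions lay within the lengths of the Release 6 arms. Gene models came from Ensembl (release 115, BDGP6 annotation 54). Positions count from 1 in dm6. A summit is the region start plus the deposited offset. Candidates were matched by an overlap of at least 1 bp, using the strongest. GC and motifs were taken from 50 bp to either side of a summit, with GC flanks centred 200 bp away. Genes of like length, for the comparison with ush and cbt, were those within a fixed fold of the gene's own length. Named genes are ush and cbt, genes within 2 kb of them, the 3 members of each list with the strongest summit, and the 5 genes most like each, of which 1 for cbt is not reported here; pnr, shn, kay and CG4297 were added after their values were seen. Members, lists, motifs and alternatives were chosen with earlier results of these data known. No test was run, because the members were chosen by their signal and there is only 1 group. Counting, overlap, merging and GC functions were checked on simulated data. Python 3.11.15, numpy 2.4.6, pandas 2.3.3, scipy 1.17.1 and matplotlib 3.10.9 were used.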

Additional observations from a re-analysis of the deposited data

How the results depend on the processing

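The number of sites was 8 with no flank, with overlapping regions merged and with RefSeq gene spans (an alternative chosen after seeing the data), and 10 with 5 kb flanks. With promoter distances of 250 and 1000 bp in place of 500 bp, 0 and 3 sites were at promoters, in place of 1, beside 13.7% and 33.2% of all peaks. Sites in the top list of every replicate were 4 (56.6% of all peaks), but 7 with candidates of any rank (83.2%), 3 with summits within 100 bp (48.1%) and 4 with an overlap of 50% of both regions (40.3%). Leaving out replicate 1, 2 or 3 gave 6, 4 and 5 sites, beside 63.6%, 62.7% and 73.5% of all peaks. The median summit distance of 13 bp did not change with the nearest candidate, and was 11.5 to 21 bp with 1 replicate left out; the highest value came without replicate 2, where all peaks also had 21 bp. The GC difference of -22.3 percentage points was -22.5 with 51 bp windows, -13.6 with windows of 100 bp to either side and -19.3 with flanks 400 bp away, beside -15.7, -11.2 and -14.9 over all peaks (-14.4 as reported). The share of genes of like length with fewer summits than ush was 89.8%, 89.0% within 1.5 times its length and 91.0% with merged regions. Of 51 partner and pathway genes, 27 had a summit in the gene or within 2 kb (21.8% of all genes). With a promoter summit required there were 6 (9.40%), within 5 kb 29 (32.1%), and with only the peaks in the top list of every replicate 17 (13.5%). Where a count moved, fewer or more regions met the altered criterion by construction; no other cause was tested. No paired analysis was possible because there is only 1 group. Without read counts, the depth behind a missing candidate, such as that of site 1 in replicate 3, is unknown, and no candidate does not show that binding was absent.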

Other observations

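Just outside the 2 kb limit upstream of ush, 2 further reproducible peaks lay near annotated starts of CG4297. The summit at 472473 was 273 bp upstream of one, 3747 bp from the start of ush, with a score of 290.1 at rank 1394. The summit at 471347 was 208 bp downstream of another, with a score of 117.1 at rank 4676. Both were promoter peaks by the 500 bp distance, whereas only site 2 of the 8 sites in ush was.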
